A study of Drosophila melanogaster and Drosophila yakuba and Drosophila virilis with 6 samples.

Results

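The genes described here are the 170 D. yakuba genes that carry a D. yakuba gene identifier but no D. melanogaster gene identifier in the deposited gene mapping of 2 D. yakuba imaginal disc libraries, and whose tags sum to 300 or more over both libraries. They are called unpaired genes below. They are 170 of the 10896 D. yakuba genes with at least 1 tag. Without the limit of 300 tags 1438 genes had no D. melanogaster identifier, and the 170 hold 83.6% of the 262847 tags on those genes. None of the 170 had a row with a D. melanogaster identifier. The genes were thus chosen by a missing pairing and by their summed level, so neither is a result.

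The libraries come from a tag profiling study of imaginal discs, the eye-antennal disc and the wing disc, dissected from larvae of the last instar at the wandering stage. Imaginal discs are epithelial sacs that form the adult head structures and wings at metamorphosis. Each disc was sampled with 1 library in each of 3 species, D. virilis, D. yakuba and the CantonS strain of D. melanogaster, which makes 6 libraries. The strains of D. yakuba and D. virilis, the number of larvae pooled, and whether attached tissue was cleared from the discs are not given in the labels. The groups used here are the D. yakuba eye-antennal discs and D. yakuba wing discs, with the same discs of D. melanogaster and D. virilis beside them.

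In tag profiling, cDNA is cut with NlaIII and a short tag beside a cut site is sequenced and counted, so most of a transcript's tags come from the site nearest its 3′ end. A tag is credited to a gene only if its position falls inside that gene's model, and 3′ untranslated parts are often short or missing in gene models predicted from sequence. Tables that pair genes between species likewise list only genes with a recognised counterpart. In general such tables leave out genes whose counterpart is absent, members of families of near-identical copies, and models that cover only a piece of a gene. Which of these applies to a given gene described here was not tested. No sequence of these genes is printed, since the tag files used here hold positions and counts alone.

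The D. yakuba eye-antennal library held 5543075 tags assigned to genes and the wing library 2155571, so the eye-antennal counts are the more precise. A count of 0 allows up to 3 tags, which is 0.541 CPM in eye-antennal and 1.39 CPM in wing. Marker lists set the tissue labels beside the data. Markers were matched by D. melanogaster symbol, so a marker at 0 may also lack a paired D. yakuba gene. Of 9 eye-antennal disc markers with 10 or more tags, 9 counted as eye-antennal-biased by the 2-fold rule given below, and the list summed to 2714 CPM (tags per 1000000 gene tags) in eye-antennal, against 224 in wing. Of 8 wing disc markers 6 were counted as higher in the wing library, with sums of 117 in eye-antennal and 513 in wing, while ap was at 0. Some marker lists of other tissues differed as well. Whether their tags came from attached tissue or from the discs was not tested. All 6 fat body genes with 10 or more tags were higher in the wing library (2432 CPM in eye-antennal, 25904 in wing, Yp1 at 0). In the ring gland list 5 of 6 genes passed the rule for eye-antennal (1007 in eye-antennal, 48.2 in wing, nvd at 0), as did 5 of 8 neuronal genes (582 in eye-antennal, 142 in wing, VGlut at 0) and 2 of 5 midgut genes (165 in eye-antennal, 32.9 in wing, with Jon66Ci, LManII and Amy-p at 0). One neuronal gene was counted as higher in wing. Hemocyte genes summed to 646 CPM in eye-antennal and 601 in wing, with 1 of 5 higher in eye-antennal and Pxn at 0. No gene was counted as higher in either disc among 7 larval muscle genes (187 in eye-antennal, 95.1 in wing), 3 salivary gland genes (249 in eye-antennal, 191 in wing), 1 tracheal gene (603 in eye-antennal, 303 in wing) and 1 germ line gene (1.44 in eye-antennal, 0.928 in wing). Of these lists Mhc, wupA, Sgs3, Sgs4, Sgs7, Eig71Ee and ng1 were at 0. So were btl, trh and verm of the tracheal list, whose sum is serp alone, and vas, aly, Mst98Ca and betaTub85D of the germ line list. The part of attached tissue in the disc differences below was not tested.

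Within the limit of 300 tags, unpaired genes had a median level near that of paired genes. Together they took 152520 tags, or 2.75% of gene tags, in eye-antennal and 67282 tags, or 3.12%, in wing. Their median level was 86.8 CPM in eye-antennal and 78.4 in wing. The 2908 paired D. yakuba genes with 300 or more tags had medians of 92.0 in eye-antennal and 83.0 in wing. Among the unpaired genes the level ran between 22.7 and 1963 CPM in eye-antennal and between 2.32 and 3565 CPM in wing. Only 51 of the 170 reached 1000 tags and 58 had fewer than 500. Abundance is ranked here by tags summed over both libraries, so the deeper eye-antennal library weighs more. The 10 most abundant took 37.4% of all their tags. At the limit, FBgn0228628 (225 tags in eye-antennal, 84 in wing), FBgn0243127 (227 and 79) and FBgn0231868 (229 and 74) were just inside. FBgn0242496 (233 tags in eye-antennal, 66 in wing), FBgn0233724 (226 and 73) and FBgn0240713 (238 and 59) were just outside.

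None of the 170 identifiers had a name in the references used, so each gene is called here by the D. melanogaster gene on which the second deposited mapping, against the genome, places its tags. The most abundant was FBgn0240246, placed on Lcp2, which codes for a larval cuticle protein, with 10882 tags in eye-antennal and 3616 in wing. After scaling, eye-antennal over wing was 1.12 (95% interval 1.08 to 1.17). By mean CPM of both libraries FBgn0240246 (1820) came after FBgn0068057 (2035) and FBgn0236409 (1945), which are described below. Larval cuticle genes are a family of close copies, so tags of one copy may be credited to another. FBgn0068057, placed on RpS15Aa, a protein of the small ribosomal subunit with a close copy in the genome, had 6473 tags in eye-antennal and 6258 in wing, and is described below with the wing-biased genes. FBgn0241995, on the uncharacterised gene CG1943, had 6907 tags in eye-antennal and 2512 in wing, a fold of 1.03 (0.980 to 1.07).

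The next abundant genes were at near-equal levels in both discs. FBgn0233888, on ctp, the dynein light chain, had 6514 tags in eye-antennal and 2203 in wing (fold 1.10, 1.05 to 1.16). FBgn0243317, on B52, an SR protein of splicing, had 5679 tags in eye-antennal and 1901 in wing (fold 1.11, 1.06 to 1.17). FBgn0230627, on crc, a bZIP factor related to ATF4, had 5202 tags in eye-antennal and 2211 in wing (fold 0.878, 0.835 to 0.923). In the scaled data these genes differed between discs by less than the 2-fold limit used here. FBgn0237741, on the D. melanogaster gene FBgn0035765, had 3088 tags in eye-antennal and 885 in wing (fold 1.30, 1.21 to 1.40). FBgn0240736 had 2919 tags in eye-antennal and 1084 in wing (fold 1.005, 0.937 to 1.08), and only 77 of its 4003 tags were on a D. melanogaster gene, vig2. FBgn0067928, on SkpA, a subunit of SCF ubiquitin ligases, had 2359 tags in eye-antennal and 1055 in wing (fold 0.834, 0.776 to 0.898). Next in order came FBgn0233800 on wds, a WD40 protein of histone-modifying complexes (2266 tags in eye-antennal, 836 in wing), and FBgn0068157 on Fib, the fibrillarin that methylates ribosomal RNA (2067 in eye-antennal, 776 in wing). FBgn0228791, on the translation elongation factor eEF1alpha2, leaned to the eye-antennal library with 2276 tags there and 496 in wing, a fold of 1.71 (1.55 to 1.89).

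**Figure D1:**
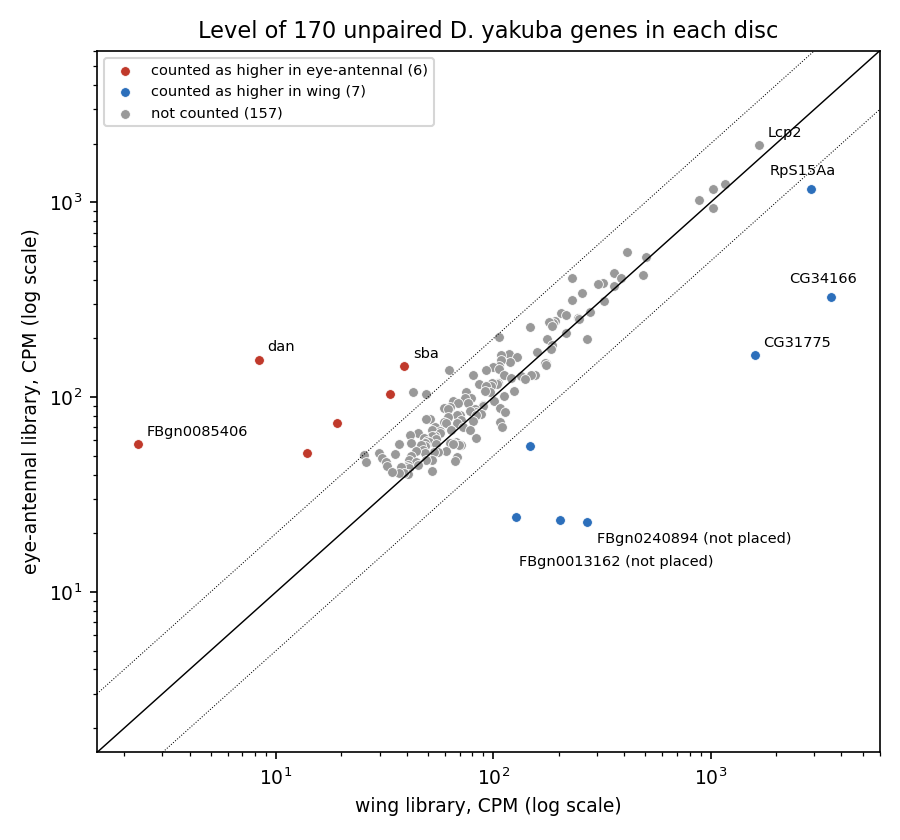
Level of each of the 170 unpaired genes in the D. yakuba eye-antennal library (vertical) and wing library (horizontal), in CPM on log axes, 1 point per gene from 1 library per disc; the solid line marks equal levels and the dotted lines 2-fold. Most points follow the solid line, with 6 genes counted as higher in eye-antennal (red) and 7 as higher in wing (blue).

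The genome mapping files, labelled with the droYak2 build, placed most of the unpaired genes on a D. melanogaster gene. At least 50% of the tags lay on a D. melanogaster gene for 141 of the 170 (82.9%), against 91.3% of the paired genes with 300 or more tags and 89.7% of all genes with 10 or more tags. For 133 of the 170 the share was at least 90%. By tags, 191319 of 219802 (87.0%) lay on a D. melanogaster gene, 3864 on D. melanogaster sequence outside genes and 17073 at positions with no D. melanogaster place, and 7546 were absent from the genome mapping. Of the 141 placed genes 112 had all of their placed tags on 1 gene, and 129 had at least 90% of their tags on 1 gene. The 141 fell on 136 D. melanogaster genes. For 21 of these the references gave no symbol, and the other 115 are all annotated as protein-coding.

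The other 29 genes were of 3 kinds. Most tags of 17 had no D. melanogaster place. The largest of these were FBgn0240736, given above, and FBgn0066138 on the X, with 2403 tags in eye-antennal and 774 in wing. For 7 genes, all on contigs outside the chromosome arms, no tag was in the genome mapping; FBgn0228841 led with 2135 tags in eye-antennal and 690 in wing, followed by FBgn0229070 with 1756 in eye-antennal and 497 in wing. The last 5 lay mostly on D. melanogaster sequence with no gene. Of those 5, FBgn0242784 on chromosome 3R was the most abundant, with 1342 tags in eye-antennal and 387 in wing at 1 cut site. A further 3 of the 5 had nearly all of their tags at positions that also carried tags in the D. melanogaster libraries, where the position with the most tags has no gene either: 99.2% for FBgn0230796, 98.6% for FBgn0234194 and 99.3% for FBgn0013162.

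**Figure D2:**
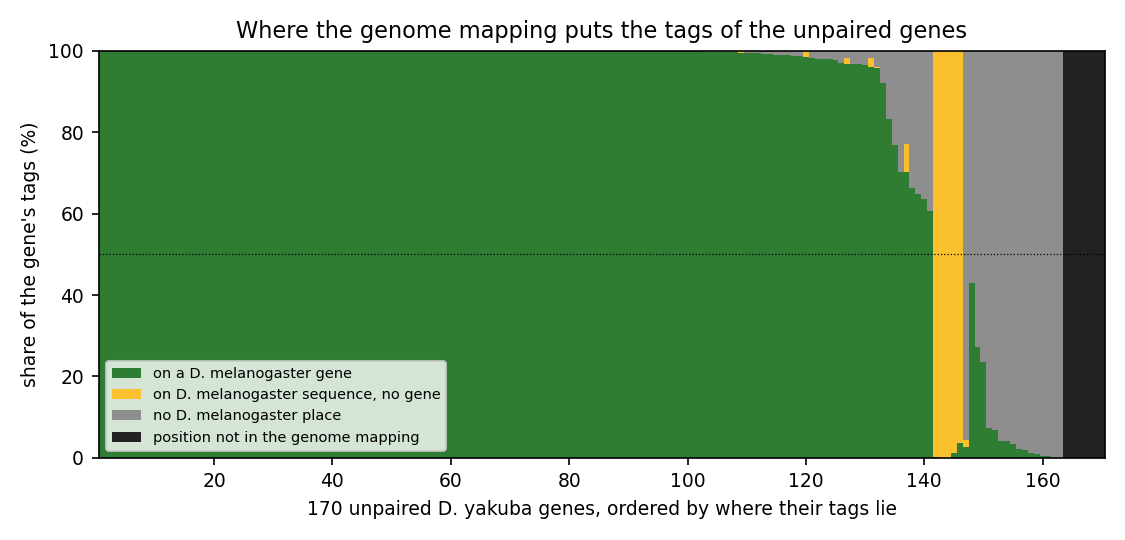
Share of each unpaired gene's tags (vertical, %) by where the genome mapping places them, for the 170 genes in order of placement (horizontal). Green marks tags on a D. melanogaster gene, yellow D. melanogaster sequence without a gene, grey positions without a D. melanogaster place and black positions absent from the genome mapping; 141 genes reach the dotted 50% line in green.

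In the gene mapping, most of the 136 D. melanogaster genes had more D. yakuba tags under unpaired than under paired genes. They were chosen through an unpaired gene that passed the limit on tags, and no such limit applied to the paired gene. The choice thus favours a larger unpaired part. The counts below describe these genes and not the mapping as a whole. Genes chosen by an abundant paired gene were not examined in this way. Of the 136 genes, 78 had no paired D. yakuba gene with a tag. The other 58 had one, but in 51 of them the paired gene had fewer tags than the unpaired gene or genes on the same D. melanogaster gene. A paired gene with under 10 tags stood beside 18 of the 58, and 96 of the 136 had under 10 paired tags in all. Where a paired gene existed, the unpaired tags were a median of 96.1% of the sum. The zinc-finger homeodomain factor zfh1 is an example, with FBgn0228734 at 481 tags in eye-antennal and 133 in wing, and a paired gene, FBgn0068223, at 1 tag in eye-antennal and 0 in wing. For B52 the paired gene FBgn0243315 had 46 tags in eye-antennal and 7 in wing, against 5679 and 1901 for FBgn0243317. In both cases a count over paired genes alone would hold few of the tags on that gene.

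In 7 of the 136 genes the paired gene held the larger part. Sod3, a superoxide dismutase, had 3425 tags in eye-antennal and 1167 in wing under the paired gene, and 1282 in eye-antennal and 401 in wing under the unpaired FBgn0231192. The endoplasmic reticulum fusion GTPase atl had 1805 tags in eye-antennal and 607 in wing under the paired gene, and 225 in eye-antennal and 84 in wing under FBgn0228628. Unpaired and paired genes on the same D. melanogaster gene were close together in the D. yakuba genome. Of 61 unpaired genes with such a paired gene, 60 were on its chromosome, at a median distance of 893.5 bases between their nearest tags. The distance was at most 1 kb for 33, at most 5 kb for 50 and at most 20 kb for 57, and the largest was 38037 bases.

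**Figure D3:**
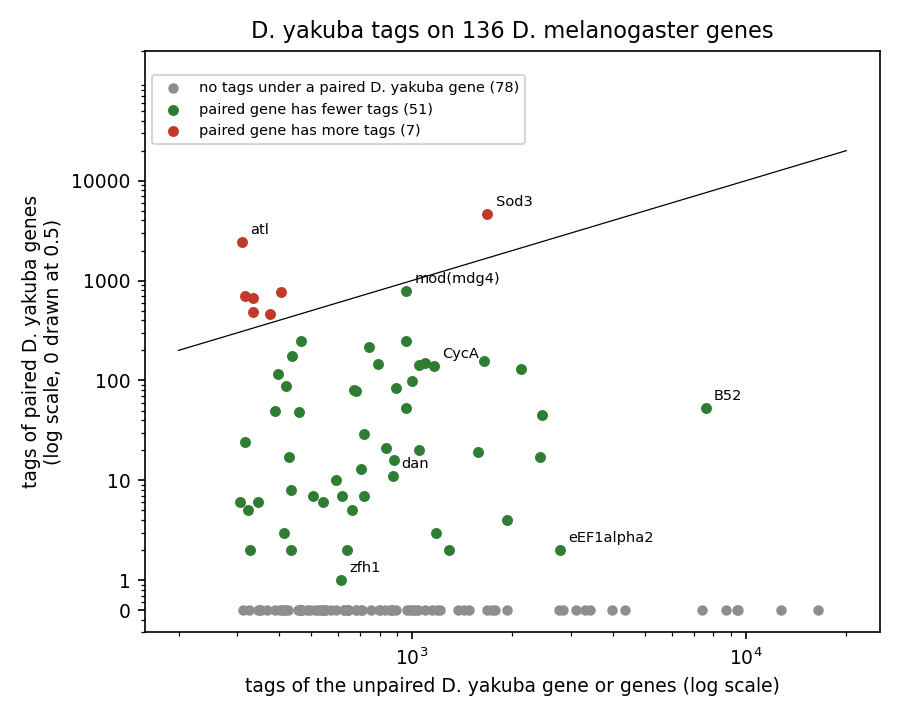
D. yakuba tags over both discs on each of the 136 D. melanogaster genes, under unpaired D. yakuba genes (horizontal, log scale) and under the paired D. yakuba gene (vertical, log scale, 0 drawn at 0.5); the line marks equal counts. Grey points are the 78 genes without paired tags, green the 51 where the paired gene had fewer tags and red the 7 where it had more.

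Of the unpaired genes 17 (10%) had all their tags at 1 NlaIII site, against 99 paired genes with 300 or more tags (3.40%) and 675 of all 8118 genes with 10 or more tags (8.31%), while the median number of sites was 5 in the unpaired and in the paired set. The site with the most tags held a median of 94.6% of an unpaired gene's tags and 94.0% of a paired gene's. Of the 17, 14 were placed on a D. melanogaster gene and 9 of these lay 120 to 1283 bases from the paired gene of the same D. melanogaster gene. The glypican gene dlp, whose product binds Wingless and Hedgehog at the cell surface, shows the form: the 1-site gene FBgn0237338 had 1264 tags in eye-antennal and 317 in wing, and the paired gene, 546 bases away, had 17 in eye-antennal and 2 in wing. The mitotic cyclin gene CycA had 887 tags in eye-antennal and 276 in wing under the 1-site gene FBgn0239096, and 95 in eye-antennal and 44 in wing under its paired gene, 405 bases away. In each case the abundant tags were at the 1 site and the paired gene held few.

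The disc differences of most unpaired genes were below 2-fold. With 1 library per disc and species no test was possible, and a gene counts as higher in 1 disc where the 95% interval of its fold, from an exact binomial interval on the counts, lies wholly at 2-fold or more. Intervals cover counting error only, and fewer cells of a type cannot be told apart from less RNA per cell. By this rule 6 unpaired genes (3.53%) had a higher level in eye-antennal discs and 7 (4.12%) in wing discs, 13 in all (7.65%). Over all 8118 D. yakuba genes with 10 or more tags the shares were 3.66% for eye-antennal, 3.5% for wing and 7.16% for either. Over the 2908 paired genes with 300 or more tags they were 3.61%, 1.27% and 4.88%. The interval excluded equal levels, on the eye-antennal side in 62 of the 170 and on the wing side in 27, so many of the genes not counted still differed beyond counting error. These 2 numbers were not taken over the other genes, so they show no trait of the unpaired genes. By the 2-fold rule, the eye-antennal share was close to both backgrounds. The wing share was close to that of all genes and above that of paired genes of like depth. No test of that difference was made. The log2 fold of the unpaired genes had a median of 0.14 (quartiles -0.11 and 0.37), with 109 genes above 0 and 61 below. The medians were 0.03 for the paired genes and 0.02 for all genes.

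The 6 genes higher in eye-antennal discs included a known antennal regulator. The largest fold was that of FBgn0241195, with 318 tags in eye-antennal and 5 in wing, a fold of 23.7 (10.1 to 73.6). This gene passed the limit on summed tags through the eye-antennal library, which is the deeper one. A gene of like level with the opposite bias would have fewer tags and could be left out by that limit. The choice of genes thus favours such an eye-antennal gene. Of the tags of FBgn0241195 70.3% lay on the D. melanogaster gene FBgn0085406 and the rest had no D. melanogaster place. FBgn0085406 had 177 tags in eye-antennal and 0 in wing in D. melanogaster, at least 45.3-fold higher with the 3 tags that a count of 0 allows taken as the wing count, as for each fold against 0 below. FBgn0228572 was placed on dan, which codes for a nuclear protein required for antennal identity in D. melanogaster, and had 862 tags in eye-antennal and 18 in wing. Its fold was 17.9 (11.2 to 30.3), all of it from 1 cut site. The paired D. yakuba gene of dan, FBgn0240744, lies 120 bases away and had 10 tags in eye-antennal and 1 in wing. In D. melanogaster dan had 116 tags in eye-antennal and 0 in wing (at least 29.7-fold), and in D. virilis 135 in eye-antennal and 0 in wing (at least 58.6-fold). The eye-antennal lead of dan was present in each of the 3 species.

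The other 4 differed by 3-fold to 4-fold. FBgn0228264 on sba had 801 tags in eye-antennal and 84 in wing, a fold of 3.56 (2.84 to 4.51), and its paired gene FBgn0241060, 894 bases away, had 14 in eye-antennal and 2 in wing. FBgn0238223 on Srrm234 had 287 tags in eye-antennal and 30 in wing, a fold of 3.57 (2.45 to 5.39); here the paired gene FBgn0238221 held more, with 616 in eye-antennal and 90 in wing. FBgn0230791, on the D. melanogaster gene FBgn0005630, had 577 tags in eye-antennal and 72 in wing, a fold of 2.99 (2.34 to 3.88). FBgn0234340 could not be placed, since 23.4% of its tags lay on Alms1a and most of the rest had no D. melanogaster place. It had 407 tags in eye-antennal and 41 in wing, a fold of 3.70 (2.68 to 5.24), and at its most abundant position alone the fold was 9.47. Ring gland and neuronal genes were also higher in this library, as given above, and their part in these differences was not tested.

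The 7 genes higher in wing discs included 3 of the 10 most abundant unpaired genes. FBgn0236409, on the uncharacterised gene CG34166, had 1803 tags in eye-antennal and 7684 in wing, which is 11.4-fold (10.8 to 12.0) higher in the wing library. FBgn0241952, on CG31775, is its neighbour on chromosome 2L, 2262 bases away, and had 908 tags in eye-antennal and 3437 in wing, 10.1-fold (9.43 to 10.9) higher in wing. The neighbours thus had close to the same fold. In D. melanogaster CG34166 was also higher in wing, with 3377 tags in eye-antennal and 8380 in wing (log2 fold -1.69), while CG31775 had no tag in either disc. FBgn0240894 had the largest fold, 12.3-fold (10.2 to 15.1) higher in wing, with 126 tags in eye-antennal and 580 in wing. None of its tags lay on a D. melanogaster gene and 705 of 706 had no D. melanogaster place.

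FBgn0013162 had 129 tags in eye-antennal and 438 in wing, 9.10-fold (7.46 to 11.2) higher in wing. Of its 567 tags 566 lay on D. melanogaster sequence without a gene and 1 on Adh, alcohol dehydrogenase, an enzyme abundant in larval fat body. FBgn0238390 on CG31827 had 135 tags in eye-antennal and 273 in wing, 5.42-fold (4.39 to 6.71) higher in wing. No tag was assigned to CG31827 in D. melanogaster, and CG31827 is likewise among the genes listed below with near-identical copies. FBgn0229945, on the D. melanogaster gene FBgn0034603, had 311 tags in eye-antennal and 317 in wing, 2.73-fold (2.33 to 3.20) higher in wing once the deeper eye-antennal library is allowed for. The ribosomal gene FBgn0068057 on RpS15Aa, with the counts above, was 2.59-fold (2.50 to 2.68) higher in wing. In D. melanogaster RpS15Aa had 461 tags in eye-antennal and 512 in wing, a fold of 0.691 (0.608 to 0.785). Beside all 7 genes stands the fat body list, with 6 of 6 genes higher in the wing library; its part in these differences was not tested.

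Across the placed genes, the same D. melanogaster gene could be read in the other species for most. Of 141 placed genes, 128 had a D. melanogaster gene with 10 or more tags in the D. melanogaster libraries, 3 had 1 to 9 tags and 10 had none. In D. virilis 76 had 10 or more tags through the authors' pairing and 59 had none. Of the 128, 8 were counted as higher in eye-antennal and 9 as higher in wing in D. melanogaster, where 7.97% and 6.8% of 8134 genes were counted so. Of the 76, 3 were higher in eye-antennal and 4 in wing in D. virilis, against 6.15% and 4.38% of 7656 genes. Of the 5 unpaired genes higher in eye-antennal in D. yakuba and measured in D. melanogaster, 3 were also counted as higher in eye-antennal there (dan, sba and FBgn0085406). Of the 3 higher in wing, 1 was also counted as higher in wing there, CG34166. None had opposite calls.

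**Figure D4:**
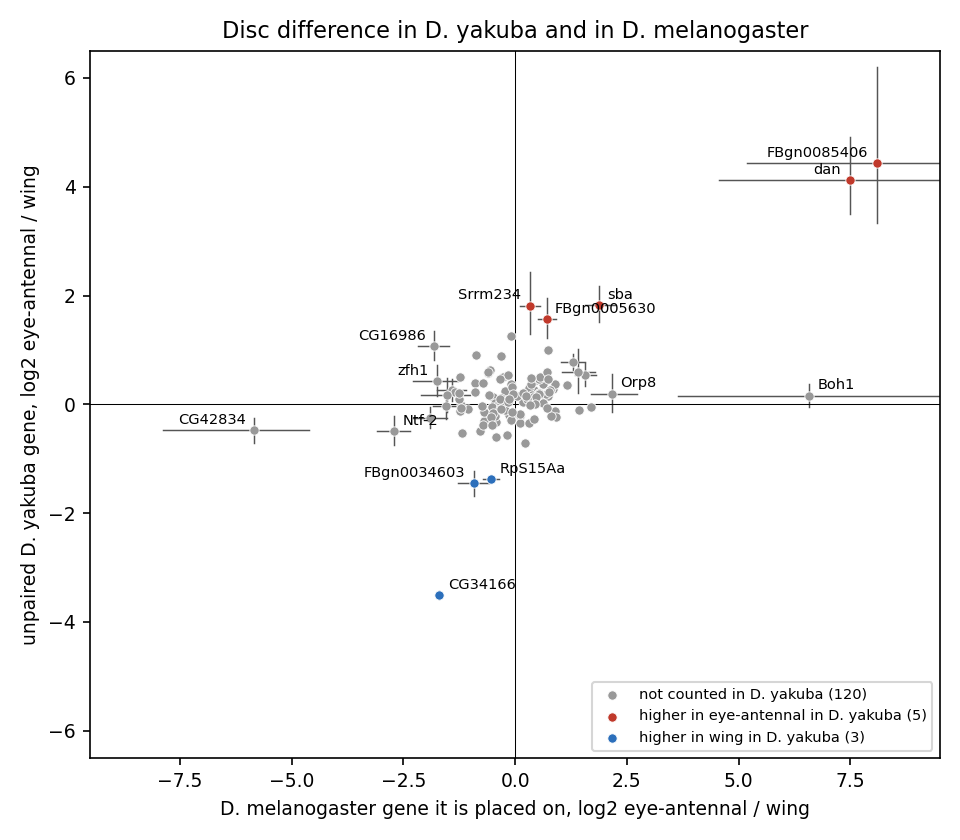
Log2 eye-antennal over wing of 128 placed unpaired D. yakuba genes (vertical) against that of the D. melanogaster gene they are placed on (horizontal), 1 library per disc and species; bars are exact 95% counting intervals of genes counted as higher in a disc in either species, open to the edge where the wing count is 0. Genes higher in eye-antennal in D. yakuba (red, 5) lie to the right of 0 and those higher in wing (blue, 3) to the left, while CG16986 and zfh1 lie above 0 in D. yakuba and left of 0 in D. melanogaster.

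Reading the D. melanogaster libraries at the same positions, rather than over the whole gene, changed which genes were counted in both species. This reading was chosen after values had been seen. At least 50% of the tags lay at positions also tagged in D. melanogaster for 92 of the 170 genes (54.1%), against 66.0% of paired genes with 300 or more tags and 57.2% of all genes with 10 or more tags. For 111 unpaired genes those positions held 10 or more D. melanogaster tags, and 9 of them were higher in eye-antennal and 9 in wing, where the shares over the 2438 paired genes with such tags were 4.72% and 10.9%. All 5 unpaired genes higher in eye-antennal in D. yakuba and measured at the same positions were also higher in eye-antennal there, and of 3 higher in wing 1, on FBgn0034603, was higher in wing there. CG34166, the wing gene shared over the whole gene, had no D. melanogaster tag at the positions of FBgn0236409 and so is not among those 3. Among the paired genes 40 of 71 eye-antennal and 15 of 27 wing genes were counted in the same disc in both species.

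Srrm234 was the clearest of these. Over the whole gene D. melanogaster had 440 tags in eye-antennal and 269 in wing, a fold of 1.25 (1.08 to 1.47). At the positions of FBgn0238223 it had 170 tags in eye-antennal and 22 in wing, a log2 fold of 2.54, beside 1.81 for the D. yakuba gene. The eye-antennal difference was therefore larger at these positions than over the whole gene. FBgn0005630 had 674 tags in eye-antennal and 316 in wing over the D. melanogaster gene, a log2 fold of 0.71, and 309 in eye-antennal and 83 in wing at the positions of FBgn0230791, a log2 fold of 1.51. For the wing, FBgn0034603 had 124 tags in eye-antennal and 181 in wing over the D. melanogaster gene (log2 fold -0.93), and 19 in eye-antennal and 90 in wing at the positions of FBgn0229945 (log2 fold -2.60). The positions of FBgn0013162 had 40 D. melanogaster tags in eye-antennal and 48 in wing, a log2 fold of -0.64 beside -3.18 in D. yakuba. FBgn0231192 on Sod3, named here after its values were seen, differed in direction. It had 1282 tags in eye-antennal and 401 in wing in D. yakuba, a log2 fold of 0.25. At its positions D. melanogaster had 14 tags in eye-antennal and 114 in wing, a log2 fold of -3.36 that counts as higher in wing. Over the whole gene D. melanogaster had 919 in eye-antennal and 829 in wing (log2 fold -0.23).

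Most of the genes counted in D. melanogaster, 13 of 17, were not counted in D. yakuba. For paired genes the count was made at the same positions, a reading other than the whole-gene one used for the 17. There 115 paired genes were counted in eye-antennal and 266 in wing in D. melanogaster, and 40 and 15 of these also in D. yakuba. By that reading 9 unpaired genes were counted in eye-antennal and 9 in wing in D. melanogaster, and 5 and 1 of these also in D. yakuba. In wing most were not counted in D. yakuba in either set. In eye-antennal the overlap was larger among the unpaired genes, which were few, and no test was made. The genes of the 17 described here were chosen after their values were seen. The nuclear transport factor gene Ntf-2 had 343 tags in eye-antennal and 180 in wing under the unpaired D. yakuba gene (log2 fold -0.49), and 72 in eye-antennal and 361 in wing in D. melanogaster (log2 fold -2.70). CG42834 had 467 tags in eye-antennal and 243 in wing in D. yakuba (log2 fold -0.48), and 4 in eye-antennal and 196 in wing in D. melanogaster (log2 fold -5.83). Both leaned to the wing in each species, by different amounts. Orp8 had 277 tags in eye-antennal and 90 in wing in D. yakuba (log2 fold 0.19), and 226 in eye-antennal and 38 in wing in D. melanogaster (log2 fold 2.17). AIMP2 had 723 tags in eye-antennal and 320 in wing in D. yakuba (log2 fold -0.25), and 79 in eye-antennal and 227 in wing in D. melanogaster (log2 fold -1.90). The D. melanogaster gene FBgn0004399 had 914 tags in eye-antennal and 234 in wing under the unpaired FBgn0230546 (log2 fold 0.54), and 699 in eye-antennal and 180 in wing in D. melanogaster (log2 fold 1.57). Boh1 had 723 tags in eye-antennal and 241 in wing in D. yakuba, and 62 in eye-antennal and 0 in wing in D. melanogaster, at least 15.9-fold. The elongation factor eEF1alpha2 was counted as higher in eye-antennal in both other species, with 456 tags in eye-antennal and 143 in wing in D. melanogaster and 94 in eye-antennal and 6 in wing in D. virilis. At the positions of FBgn0228791 D. melanogaster had 316 tags in eye-antennal and 138 in wing, a fold of 1.76 (1.43 to 2.16), close to the 1.71 of D. yakuba. Whether these differences between species exceed the spread between libraries of 1 species was not tested.

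Unpaired genes were also placed on genes with known roles in disc patterning and growth, which are named here after their values were seen. The TEAD factor sd, which acts with Vestigial in the wing, was the D. melanogaster gene of FBgn0234705, with 1102 tags in eye-antennal and 580 in wing, a fold of 0.709 (0.641 to 0.785). The T-box gene bi, a target of Dpp signalling in the wing, had 274 tags in eye-antennal and 147 in wing, a fold of 0.696 (0.567 to 0.856). The paired gene of bi had 53 tags in eye-antennal and 35 in wing, and sd had none. Both leaned to the wing by less than 2-fold, and in D. melanogaster sd had a log2 fold of -0.78 and bi of -1.20. The Smad gene Mad, which carries the Dpp signal to the nucleus, had 713 tags in eye-antennal and 288 in wing, a fold of 0.924 (0.805 to 1.06), beside 68 in eye-antennal and 31 in wing under its paired gene. The ecdysone-induced nuclear receptor gene Eip75B had 414 tags in eye-antennal and 128 in wing (fold 1.21, 0.988 to 1.48). Smaller counts belonged to Rbf, the retinoblastoma relative that restrains the cell cycle (372 tags in eye-antennal, 123 in wing), and bsk, the Jun kinase (363 in eye-antennal, 123 in wing). Apart from dan, none of these regulators was counted as higher in a disc.

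The unpaired genes were spread over all chromosome arms. Of the 170, 23 were on 2L (13.5%, against 19.7% of paired genes), 34 on 2R (20% against 20.1%), 26 on 3L (15.3% against 16.5%), 39 on 3R (22.9% against 23.5%), 40 on X (23.5% against 17.7%) and 1 on chromosome 4 (0.588% against 1.51%). The other 7 (4.12% against 0.963%) were on contigs outside the arms. The X and the contigs thus held more of the unpaired than of the paired genes, and 2L fewer, with no test made.

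Unpaired genes often lay near one another. Within 20 kb of another unpaired gene, measured between tags, were 39 of the 170 (22.9%), whereas 280 paired genes (9.63%) lay that near an unpaired gene. Within 5 kb the numbers were 28 (16.5%) and 98 (3.37%), and within 50 kb they were 45 (26.5%) and 526 (18.1%). The 39 formed 17 groups, and in 5 groups all the genes had their placed tags on the same D. melanogaster gene. In all, 5 D. melanogaster genes carried 2 placed unpaired genes each: FBgn0000210, Lcp2, mod(mdg4), FBgn0005630 and ReepA.

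**Figure D5:**
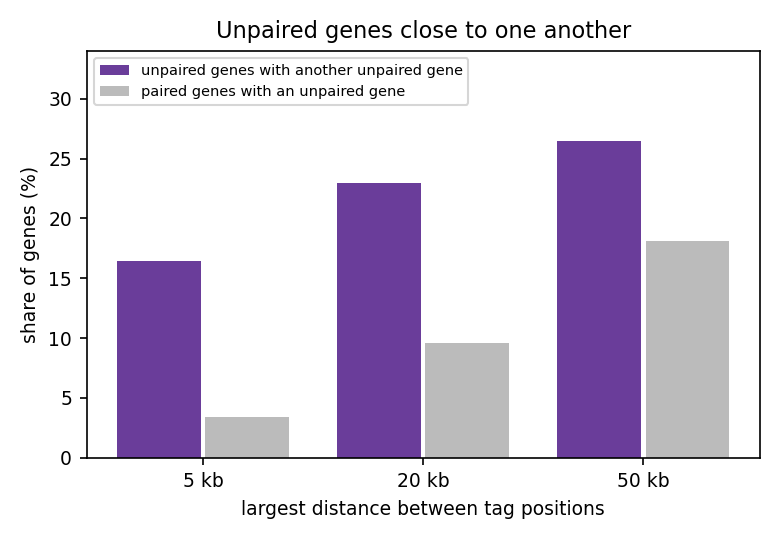
Share of unpaired genes with another unpaired gene nearby (purple) and of paired genes with 300 or more tags with an unpaired gene nearby (grey), in % (vertical), at 3 largest distances between tag positions in kb (horizontal). The shares are 16.5% and 3.37% at 5 kb, 22.9% and 9.63% at 20 kb and 26.5% and 18.1% at 50 kb.

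There were 3 groups of 3 or more genes, with 11 genes in all. Positions are tag starts as deposited, which recur in the mapping labelled droYak2. On the X, 4 genes followed one another between 1385778 and 1411057, and their placed tags lay on the single D. melanogaster gene FBgn0000210. FBgn0234193 had 1132 tags in eye-antennal and 228 in wing, FBgn0234194 had 437 in eye-antennal and 134 in wing, FBgn0234196 had 265 in eye-antennal and 106 in wing, and FBgn0234197 had 1408 in eye-antennal and 526 in wing. The first and last of the 4 were placed, with 96.0% and 96.7% of their tags on D. melanogaster genes, while only 3.68% and 2.70% of the tags of the middle genes were. The log2 folds were 0.89, 0.28, -0.10 and -0.0024 in that order along the chromosome. The folds of the placed genes, 1.85 (1.61 to 2.15) for FBgn0234193 and 0.999 (0.903 to 1.11) for FBgn0234197, had intervals that did not overlap. Their gaps, 566, 502 and 186 bases, include the smallest in the set.

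On 2R, 3 genes between 2729295 and 2753206 had their placed tags on FBgn0005630. FBgn0230791, given above as higher in eye-antennal, was followed by FBgn0230794 with 319 tags in eye-antennal and 79 in wing, and by FBgn0230796 with 495 in eye-antennal and 136 in wing. Only 1.27% of the tags of FBgn0230796 lay on a D. melanogaster gene, and its log2 fold of 0.44 was -0.32 at its most abundant position alone. On 3R, 4 genes lay between 5948131 and 5992183. The first was FBgn0242090 on aus, with 590 tags in eye-antennal and 207 in wing. FBgn0242086 (449 in eye-antennal, 151 in wing) and FBgn0242084 (283 in eye-antennal, 76 in wing) were on mod(mdg4), a chromatin protein gene known for many 3′ variants made by trans-splicing. The paired gene of mod(mdg4), FBgn0242073, had 575 tags in eye-antennal and 204 in wing and lay 20636 and 18611 bases from them. The fourth was FBgn0242784, without a D. melanogaster gene.

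Of the 5 closest pairs 3 were in the group on the X. The other pairs among the 5 lay on different D. melanogaster genes. FBgn0239482 on AIMP2, a scaffold of the tRNA synthetase complex, had 723 tags in eye-antennal and 320 in wing and lay 520 bases from FBgn0237161, whose tags lay for 42.9% on CG7656 (241 in eye-antennal, 88 in wing). FBgn0241852 on eca, a p24 cargo receptor of the secretory pathway, had 1393 tags in eye-antennal and 536 in wing, and its neighbour FBgn0243021 on CG32939, 771 bases away, had 592 in eye-antennal and 161 in wing. The next closest pairs had their placed tags on 1 gene each, CG42834 at 1151 bases, mod(mdg4) at 1733 bases and ReepA at 1894 bases. The second gene on Lcp2, FBgn0240225, lay 2284 bases from the first, with 1499 tags in eye-antennal and 440 in wing (fold 1.27, 1.14 to 1.42). No tag was assigned to Lcp2 in D. melanogaster.

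The files give no strand, but strand could be read in part from the spacing of positions. Pairs of positions 18 bases apart numbered 11959 in eye-antennal and 7522 in wing, against 20 and 5 pairs at 17 bases and 19 and 16 at 19 bases, so positions 18 apart were taken as the 2 strands of 1 cut site. This reading was also added after the data were seen. It gives a strand only at sites with tags on both strands, so sites tagged on 1 strand alone are left out of every sense share. Of 95 placed unpaired genes with 10 or more tags of known strand, 6 had most of those tags antisense to the D. melanogaster gene they were placed on. Over all 99 unpaired genes with such tags the share was 7.07%, against 9.62% of 2183 paired genes and 11.3% of all genes with such tags, and the median sense share was 96.3% against 96.7%. The 6 were Ance-5 (0% of 749 tags sense), CG7888 (0% of 305), atl (2.91% of 309), CG16986 (4.50% of 888), Fib (10.1% of 417) and CG5787 (31.2% of 16). For Fib and CG5787 most tags had no strand reading, since the genes had 2843 and 990 tags in all. Among the abundant genes the sense share was 99.5% of 14492 tags on Lcp2, 95.1% of 12709 on RpS15Aa, 98.4% of 9447 on CG34166, 99.6% of 9165 on CG1943, 95.2% of 7534 on B52, 98.6% of 7281 on crc and 91.5% of 4066 on CG31775. It was lower on wds (77.5% of 3096), on ctp (61.8% of 217) and on SkpA (83.7% of 92), the last 2 with few tags of known strand. For those 2 the sense share leaves out most of the tags, of which the genes had 8717 and 3414 in all. For dan it was 98.9% of 880.

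No gene family dominated the placed genes. Of the 136 D. melanogaster genes, 34 (25%) had a CG number as their only name, against 23.0% of the D. melanogaster genes of the 2908 paired genes. Cytosolic ribosomal protein genes numbered 2 (RpS14a and RpS15Aa, 1.47% against 1.82%), larval cuticle genes 1 (Lcp2) and histone genes 1 (His3.3A). None was a mitochondrial ribosomal, storage, glue, odorant-binding or chemoreceptor, heat shock, E(spl) or Brd, actin or tubulin, proteasome, respiratory chain or gut peptidase gene. Proteasome and respiratory chain genes made up 0.928% and 1.38% of the paired set. Tags on genes with near-identical copies, among them Lcp2, Gss2, Sdic4, RpS14a, RpS15Aa, His3.3A, Gem4b, CG18858, CG31775, CG31827 and CG32640, may be split between copies, and their values are uncertain.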

How the data were processed

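The authors deposited tag counts, 1 line per genomic position with its assigned gene, per the file headers. The submitters' processing notes name Bowtie 0.12.1. Not given in the sources used here are the mismatches allowed, how tags with several matches were treated, the annotation release and whether positions start from 0 or 1. Counts were summed per D. yakuba gene over rows without a D. melanogaster identifier, and genes with 300 or more tags were kept. The genome mapping of the same libraries was joined by identical position. All tags were summed whatever their strand.

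Both libraries of a species were scaled with TMM (edgeR 4.0.16, R 4.3.3; factors 1.02 and 0.980 for D. yakuba eye-antennal and wing). Folds are ratios per scaled library with exact conditional binomial (Clopper-Pearson) 95% intervals (scipy 1.17.1, pandas 2.3.3, Python 3.11.15), checked on simulated data. Log2 folds have 0.5 tags added to each count, and folds against 0 use 3 tags as the floor. Library totals ran from 1860370 to 5673047 tags. Gene symbols and strands come from the BDGP6 annotation of D. melanogaster by identifier alone, and no coordinate was converted. Genes are named by rule: the 10 most abundant, those counted as higher in a disc, the most abundant placed genes, groups of 3 or more neighbours and the 5 closest pairs, and those next to the limit; others are said to be chosen after their values were seen, or are given as examples of a count. The genes, marker lists and families were chosen with earlier results of these data known.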

Additional observations from a re-analysis of the deposited data

Results flagged for a closer look

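The counting intervals of the D. yakuba fold and of the other species' fold lay on opposite sides of equal levels for 14 of 128 unpaired genes in D. melanogaster and 7 of 76 in D. virilis. These counts were not taken over the other genes, so they show no trait of the unpaired genes. In 3 genes the fold of the other species over the whole gene also passed the 2-fold rule. There is 1 library per disc and species, so the difference between species was not tested. For CG16986 the D. yakuba gene FBgn0238946 had 762 tags in eye-antennal and 135 in wing (log2 fold 1.07), against 99 in eye-antennal and 268 in wing in D. melanogaster (log2 fold -1.81) and 105 in eye-antennal and 406 in wing in D. virilis (log2 fold -1.57). Of the D. yakuba tags of known strand 4.50% were sense to CG16986, and 99.1% lay at positions also tagged in D. melanogaster, where those positions had 79 tags in eye-antennal and 229 in wing. For zfh1 the D. yakuba gene FBgn0228734 had 481 tags in eye-antennal and 133 in wing (log2 fold 0.43), against 48 in eye-antennal and 125 in wing in D. melanogaster (log2 fold -1.75). For CycA the D. yakuba gene FBgn0239096 had 887 tags in eye-antennal and 276 in wing (log2 fold 0.26), against 119 in eye-antennal and 244 in wing in D. melanogaster (log2 fold -1.42).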

How the results depend on the processing

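The number of unpaired genes counted as higher in a disc moved most with the limit on tags: 13 at 300 tags (6 eye-antennal, 7 wing), 35 at 100 tags (20 eye-antennal, 15 wing) and 3 at 1000 tags (0 eye-antennal, 3 wing). At limits of 100 and 1000 tags 261 and 48 paired genes were counted, against 142 at 300. The number of paired genes at limits of 100 and 1000 was not taken, so no share stands beside those counts. Genes placed on a D. melanogaster gene numbered 269 of 324 at 100 tags and 45 of 51 at 1000 tags, and genes with a neighbour within 20 kb numbered 72 and 8. Fewer genes enter at a higher limit, 324 at 100 tags, 170 at 300 and 51 at 1000. Among the unpaired genes the share counted as higher in a disc fell as well with each step. Whether that share fell among the paired genes was not examined. The share with a neighbour was lower at 1000 tags than at 100 or 300. The median level, with the tags of both libraries pooled, was 84.0 CPM and 70.3 at the position with the most tags alone. Scaling by total tags shifted log2 folds by 0.06. All 13 calls were kept under that scaling, with counts from the genome mapping and at the top position alone, which added 1. Restricting to placed genes, added after the data were seen, left 10 of 141, and no such restriction was made on the paired genes. Placement by any tag gave 159 and within 20 bases 149. Of placed genes with 100 tags of known strand, also added later, 5 of 85 were antisense. No paired analysis was possible because each disc has 1 library and no replicate can be left out. Depth limits genes near 300 tags, where the wing library holds few tags.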
